A study of Mus musculus with 20 samples.

Results

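The mouse PYHIN genes Ifi203, Ifi204, Ifi205, Ifi207, Ifi209, Ifi211 and Mndal are described here in BV-2 cells, murine microglia immortalised with an oncogene-carrying retrovirus. They are 7 of the 55487 genes in the count table, found by their Ensembl gene identifiers, and all 7 were among the 12799 genes with enough counts to be tested. RNA was sequenced from 20 cultures in 4 groups of 5: young untreated, young LPS, aged untreated and aged LPS. Young cultures were low-passage BV-2 cells, and aged cultures came from frozen aliquots of BV-2 cells kept in culture for a long period. LPS, the bacterial lipopolysaccharide that activates Toll-like receptor signalling, was given at 100 ng/ml for 6 h. Cultures of each age derive from 1 cell line, so the aged cells are a cultivation model and not microglia taken from an old animal. Whether the 5 aged cultures stem from 1 long-term cultivation or from more is not stated in the sources used here. The p-values for age therefore cover the spread between cultures and may not cover that between separate cultivations. Time in culture cannot be told apart from other differences between the young and aged stocks.

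PYHIN proteins pair a pyrin domain, which assembles with other pyrin domains, with a HIN domain, which binds DNA. The family is known for sensing DNA that is out of place: AIM2 assembles an inflammasome on cytosolic DNA, and IFI204, the mouse relative of human IFI16, works with the adaptor STING upstream of type I interferon. The genes lie side by side in a cluster that expanded in the mouse, and many of them are themselves induced by interferon. In macrophages and microglia LPS leads to interferon beta production, and the interferon then acts back on the cells through its receptor, whose signal reaches promoters that carry interferon-stimulated response elements.

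In the GENCODE annotation of GRCm38 the members lay on chromosome 1 between chr1:173630917, the first base of Ifi209, and chr1:174031810, the last base of Ifi205. Ifi209 was on the plus strand, and the other 6 were on the minus strand. The annotated span of Mndal, chr1:173849126-173942491, held Ifi211 and reached into Ifi203, but Mndal and Ifi203 shared only 37 exonic bases, 1.02% of the exonic bases of Mndal. Close relatives in sequence were more of a concern for counting than overlaps. Of the 50-base stretches in the annotated Ifi211 transcript, 72.8% also occurred in transcripts of other genes, mainly Ifi205 with 44.7% and Ifi204 with 30.1%. The share was 33.7% for Ifi209, nearly all of it from Ifi214, 20.0% for Ifi204, 19.6% for Mndal, 18.6% for Ifi205, 12.2% for Ifi203 and 7.29% for Ifi207. The settings for multiply aligned reads in the authors' counting are not given in the sources used here, so Ifi211 and Ifi209 values are the least certain. No pair of members had near-identical summed counts with LPS: in young LPS cultures the pair closest in ratio, Mndal and Ifi211, held 5333 and 4323 reads over the 5 cultures, and Ifi205 and Ifi209 held 2358 and 1713.

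The promoters are shown because the members moved together under LPS and the RefSeq promoter windows, 250 bases before to 50 bases after an annotated start site, hold a shared element. RefSeq entries (GRCm38.p6) were found for 6 of the 7 members, the exception being Ifi204. Each line is 60 bases of the gene's own strand, 5′ to 3′, with the 10-base core of the interferon-stimulated response element, searched as GAAANNGAAA on both strands, in capitals. The Ifi209 line has a core with 1 mismatch.
Ifi203: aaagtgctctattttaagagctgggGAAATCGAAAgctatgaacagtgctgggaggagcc
Mndal: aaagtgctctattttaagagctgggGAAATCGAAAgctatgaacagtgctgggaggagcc
Ifi205: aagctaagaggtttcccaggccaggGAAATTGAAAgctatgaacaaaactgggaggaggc
Ifi211: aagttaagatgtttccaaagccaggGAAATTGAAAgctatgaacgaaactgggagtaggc
Ifi207: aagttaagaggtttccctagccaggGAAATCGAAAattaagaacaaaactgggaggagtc
Ifi209: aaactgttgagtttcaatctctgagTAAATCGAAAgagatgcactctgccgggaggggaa
The 6 genes have 8 promoter windows in the RefSeq table, since Ifi203 and Mndal have 2 start sites each. An exact core stood in 6 of these 8 windows, in at least 1 window of 5 of the 6 genes, and in 3.44% of all 32851 RefSeq windows. The Ifi203 window (chr1:173942493-173942552, minus strand, from the second of its start sites) and the Mndal window (chr1:173880189-173880248, minus strand) were identical at 60 of 60 bases although they are separate copies in the genome. The Ifi205 window (chr1:174031855-174031914, minus strand) matched that of Ifi211 (chr1:173913049-173913108, minus strand) at 54 of 60 bases and that of Ifi207 (chr1:173741816-173741875, minus strand) at 52 of 60. With the start site counted as 0, the core ended at -26 in Ifi203, -27 in Mndal, -28 in Ifi211 and -32 in Ifi207, and farther away, at -125, in Ifi205. Ifi205 held another core on the opposite strand after the start site, from 23 to 32. In Ifi209 (window chr1:173630755-173630814, plus strand) no exact core was found; with 1 mismatch allowed 7 of the 8 windows held a core, as did 35.4% of all windows. Neither the gamma-activated site TTCNNNGAA, held by 8.3% of all promoters, nor the kappaB consensus, held by 4.51%, was found in a member's window. These matches describe letters in a window and not factor binding.

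**Figure D1:**
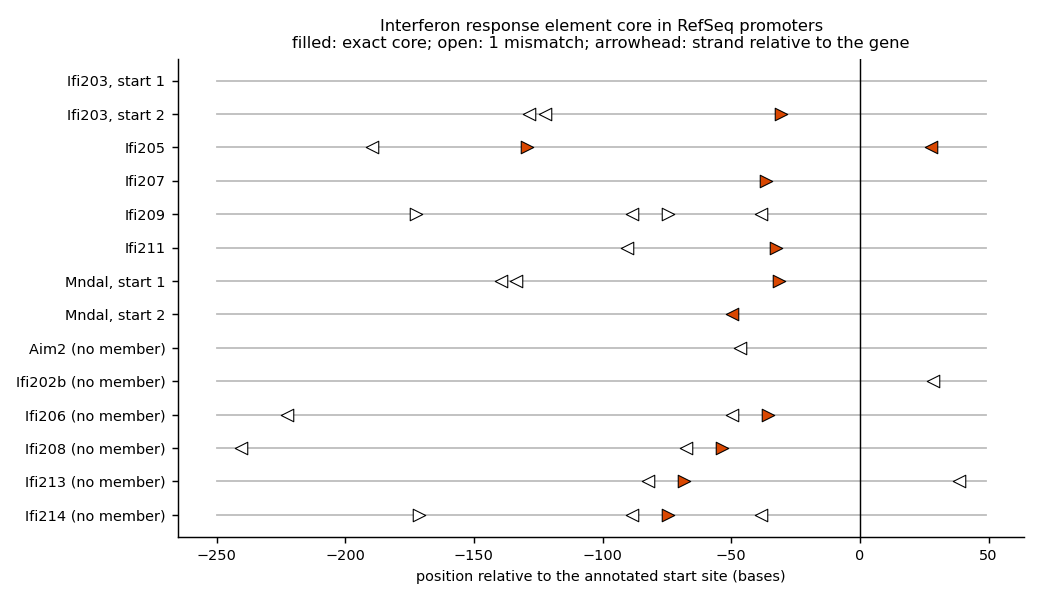
Positions of the interferon-stimulated response element core in each RefSeq promoter window of the PYHIN genes, in bases from the annotated start site; filled arrowheads are exact cores, open arrowheads have 1 mismatch, and their direction gives the strand relative to the gene. Exact cores stand just before a start site of Ifi203, Ifi207, Ifi211 and Mndal. Ifi205 has a core farther before its start site and another on the opposite strand after it. Ifi209, Aim2 and Ifi202b hold no exact core.

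Libraries held 11371508 to 16829292 counts, so that 3 counts, taken as the floor of detection in a library, came to 0.165 to 0.296 CPM (counts scaled to library size). Of 13 microglia and macrophage markers 11 to 13 were above 1 CPM in each group, with Cx3cr1 and P2ry12, receptors of resting microglia, between 0.0733 and 1.18 CPM on average. The markers summed to 3118 to 4343 CPM in young untreated, 2642 to 3720 in aged untreated, 3733 to 5084 in young LPS and 3131 to 4352 in aged LPS cultures, and 7 of the 13 were called lower and 1 higher in aged than in young cultures under LPS; their part in the results below was not tested. Markers of astrocytes, neurons, oligodendrocytes, fibroblasts, lymphocytes and endothelium were near 0, with 19 to 21 of 22 at or under the floor and sums of 0.929 to 2.31 CPM. In RNA from whole cultures, fewer expressing cells and less RNA per cell cannot be told apart. Aged LPS replicate 3 stood apart from the other 4 cultures of its group in most members. Some results under LPS are therefore also given without it, or without batch 3 in all groups compared.

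LPS raised every member in both young and aged cultures, and every member was lower in aged than in young cultures under LPS. Without LPS, Ifi203, Ifi204, Ifi207 and Mndal were lower in aged cultures, while Ifi205, Ifi209 and Ifi211 were at or near the floor of detection in 1 or both groups. In edgeR's quasi-likelihood test with an adjusted p below 0.05, 7 of 7 members rose with LPS in young cultures, beside 31.2% of all genes tested, and 7 of 7 rose in aged cultures, beside 27.5%. Under LPS 7 of 7 were lower in aged cultures, beside 15.0% of all genes. For each member the groups did not overlap and 5 of 5 batches had the same direction. How often this held over all genes was not counted, so it only describes the members. Without LPS 4 of 7 were lower and 0 higher, beside 7.81% of all genes called lower. Ifi205, Ifi209 and Ifi211 passed the filter on low counts only through the LPS groups, so their counts under LPS are a description of genes that had to differ. The 4 members that pass it on the untreated cultures alone, Ifi203, Ifi204, Ifi207 and Mndal, were called in each of these comparisons.

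**Figure D2:**
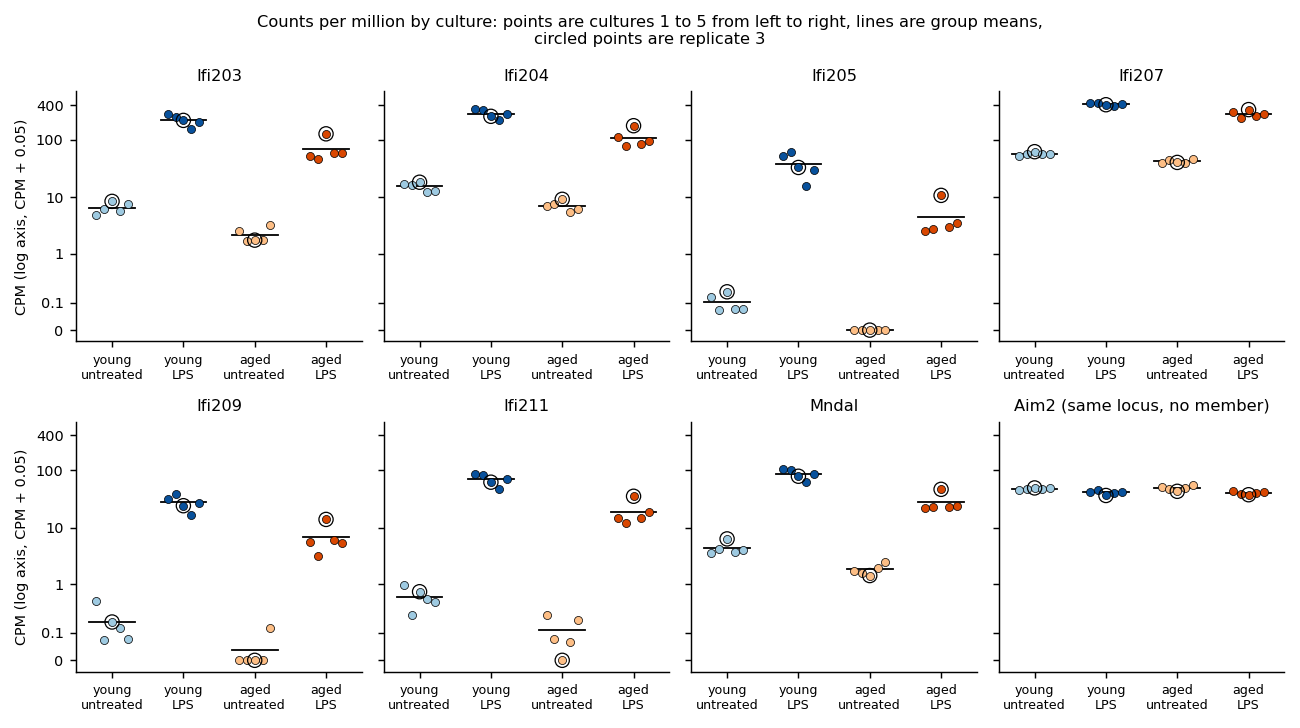
CPM of the 7 members and of Aim2 in each of the 20 cultures, on a log axis of CPM plus 0.05, with the group mean as a line and replicate 3 circled. Each member is higher in both LPS groups than in either untreated group, aged LPS cultures sit below young LPS cultures, and Aim2 stays near 40 to 49 CPM on average in every group.

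Ifi204, the DNA sensor that works with STING, was present in all cultures. Its CPM in young untreated replicates 1 to 5 was 17.4, 16.7, 18.4, 12.3 and 13.0, and in aged untreated replicates it was 7.11, 7.54, 9.25, 5.66 and 6.19. Every aged culture lay below every young culture. With LPS the young cultures reached 337, 328, 256, 221 and 286 CPM. The aged LPS cultures reached 111, 78.4, 176, 83.8 and 94.5 CPM, again all below the young ones. By edgeR Ifi204 was 2.17-fold higher in young than in aged untreated cultures (aged minus young log2 fold change -1.12 ± 0.22 SE, adjusted p = 0.00228). LPS raised it 18.4-fold in young cultures (log2 fold change 4.20 ± 0.20, edgeR adjusted p = 2.54e-14) and 15.2-fold in aged cultures (3.93 ± 0.21, adjusted p = 4.13e-13). Under LPS the young mean was 2.62-fold the aged mean (log2 fold change -1.39 ± 0.17, edgeR adjusted p = 3.25e-06).

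Of the 7 members Ifi207 had the highest level per length in every group and the smallest relative changes. Young untreated cultures held 53.4, 56.7, 62.2, 56.7 and 56.4 CPM, and aged untreated cultures held 40.3, 44.7, 40.5, 39.4 and 46.9 CPM. Groups did not overlap, and the spread within each was narrow (SD 3.20 and 3.24 CPM, n = 5). LPS took Ifi207 to 435, 439, 407, 385 and 418 CPM in young cultures, a 7.30-fold rise (edgeR log2 fold change 2.87 ± 0.08 SE, adjusted p = 2.53e-18). In aged cultures LPS took it to 300.0, 241, 335, 255 and 277 CPM, a 6.65-fold rise (2.73 ± 0.08, edgeR adjusted p = 1.02e-17). The aged mean was 0.742 of the young mean without LPS (log2 fold change -0.43 ± 0.08, edgeR adjusted p = 7.62e-04) and 0.676 of it under LPS (-0.56 ± 0.07, adjusted p = 4.15e-06).

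Ifi203 and Mndal are the genes with the identical promoter windows printed above. Ifi203 held 4.83, 6.26, 8.51, 5.67 and 7.52 CPM in young untreated cultures and 2.59, 1.68, 1.77, 1.76 and 3.33 CPM in aged untreated cultures. Mndal, named for its likeness to the myeloid nuclear differentiation antigen, held 3.59, 4.22, 6.34, 3.76 and 4.06 CPM in young untreated cultures and 1.75, 1.62, 1.43, 1.98 and 2.46 CPM in aged untreated cultures. For both genes each young culture was above each aged one. The aged mean was 0.339 of the young mean for Ifi203 (log2 fold change -1.58 ± 0.36 SE, edgeR adjusted p = 0.00596) and 0.42 of it for Mndal (-1.26 ± 0.30, adjusted p = 0.00849).

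With LPS, Ifi203 reached 276, 249, 218, 156 and 201 CPM in young cultures and 52.6, 46.7, 127, 60.2 and 58.2 CPM in aged cultures. Mndal reached 102, 99.7, 78.0, 61.5 and 83.9 CPM in young LPS and 22.0, 22.4, 46.2, 23.2 and 23.5 CPM in aged LPS cultures. In both genes 4 of the 5 aged cultures were close together and replicate 3 stood well above them, though still below each young culture. The rise with LPS was 33.5-fold for Ifi203 in young cultures (log2 fold change 5.06 ± 0.26, edgeR adjusted p = 8.67e-14) and 31.0-fold in aged cultures (4.97 ± 0.30, adjusted p = 2.31e-12). For Mndal it was 19.4-fold in young (4.26 ± 0.21, edgeR adjusted p = 7.16e-14) and 14.9-fold in aged cultures (3.90 ± 0.25, adjusted p = 8.36e-12). Under LPS the aged mean was 0.314 of the young mean for Ifi203 (-1.67 ± 0.21, edgeR adjusted p = 3.49e-06) and 0.323 of it for Mndal (-1.63 ± 0.18, adjusted p = 8.55e-07).

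Ifi205, Ifi209 and Ifi211 were the members that LPS lifted from almost nothing. Ifi205 had 2, 1, 3, 1 and 1 reads in young untreated cultures and 0 reads in each of the 5 aged untreated cultures, so all 10 were at or under the floor and no difference by age could be read. LPS raised it to 532, 732, 480, 211 and 403 reads in young cultures (52.6, 60.7, 33.1, 15.7 and 29.7 CPM) and to 36, 34, 157, 39 and 49 reads in aged cultures (2.53, 2.80, 10.8, 3.02 and 3.54 CPM). Even the highest aged culture was below the lowest young one. In young cultures the ratio of summed reads, scaled for library size, was 356 (95% interval 180 to 826, counting error only; edgeR adjusted p = 1.08e-09). In aged cultures Ifi205 was at least 22.5-fold higher with LPS, against a floor of 3 counts per library (edgeR adjusted p = 6.37e-06), or at least 14.7-fold without aged LPS replicate 3. Of all members it had the largest difference by age under LPS, with an aged mean of 0.118 of the young mean (log2 fold change -3.05 ± 0.37 SE, edgeR adjusted p = 7.91e-06). Ifi205 passed the filter on low counts only through the LPS groups, so its rise and this ranking are a description.

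Ifi209, also known as Pyhin1, had 7, 1, 3, 2 and 1 reads in young untreated cultures and 0, 0, 0, 0 and 2 reads in aged untreated cultures. The ratio of summed reads of young to aged was 7.38 with a 95% counting interval of 1.69 to 66.9, and the difference did not pass edgeR's test (adjusted p = 0.323). With LPS it reached 30.9, 38.9, 24.0, 16.6 and 26.6 CPM in young cultures. Aged LPS cultures reached 5.69, 3.13, 13.9, 5.96 and 5.35 CPM, all below the young cultures. Ifi209 rose 148-fold in young cultures (log2 fold change 7.16 ± 0.46, edgeR adjusted p = 3.90e-12), and by 7.82 on the log2 scale without young untreated replicate 1, which held 7 of its 14 untreated reads. In aged cultures the ratio of summed reads was 282 (95% counting interval 77.7 to 2339; edgeR adjusted p = 3.56e-09), a width set by the 2 reads without LPS, both of them in replicate 5. Without replicate 3 the ratio was 162 (44.3 to 1341), and without replicate 5 the rise was at least 35.5-fold against the floor. Under LPS the aged mean was 0.248 of the young mean (-1.99 ± 0.27, edgeR adjusted p = 9.90e-06). Ifi209 too passed the filter on low counts only through the LPS groups, so its values under LPS are a description.

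Ifi211 had 14, 4, 12, 8 and 7 reads in young untreated cultures and 4, 1, 0, 1 and 3 in aged untreated cultures, and its groups touched at 4 reads. The log2 fold change was -2.31 ± 0.93 SE and did not pass edgeR's test (adjusted p = 0.114). DESeq2, run as an alternative, called Ifi211 (adjusted p = 0.00205) and Ifi205 (adjusted p = 0.0486) lower in aged untreated cultures, which makes 6 of 7 members. Over all genes it called 1737 of 13739 in either direction. Ifi211 and Ifi205 pass the filter on low counts only through the LPS groups. Ifi205 was also at or under the floor in every untreated culture, so no difference by age is read from these calls. With LPS, Ifi211 reached 85.4, 80.7, 61.5, 47.4 and 70.6 CPM in young cultures and 14.5, 12.2, 35.0, 14.6 and 18.4 CPM in aged cultures. Again no aged culture reached the lowest young one. The rise was 118-fold in young (log2 fold change 6.86 ± 0.34, edgeR adjusted p = 4.17e-14) and 163-fold in aged cultures (7.31 ± 0.47, adjusted p = 9.52e-12), where leaving out batch 3 gave 6.62. Under LPS the aged mean was 0.274 of the young mean (-1.86 ± 0.21, edgeR adjusted p = 1.57e-06). Because of the filter, the values of Ifi211 under LPS are a description as well.

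**Figure D3:**
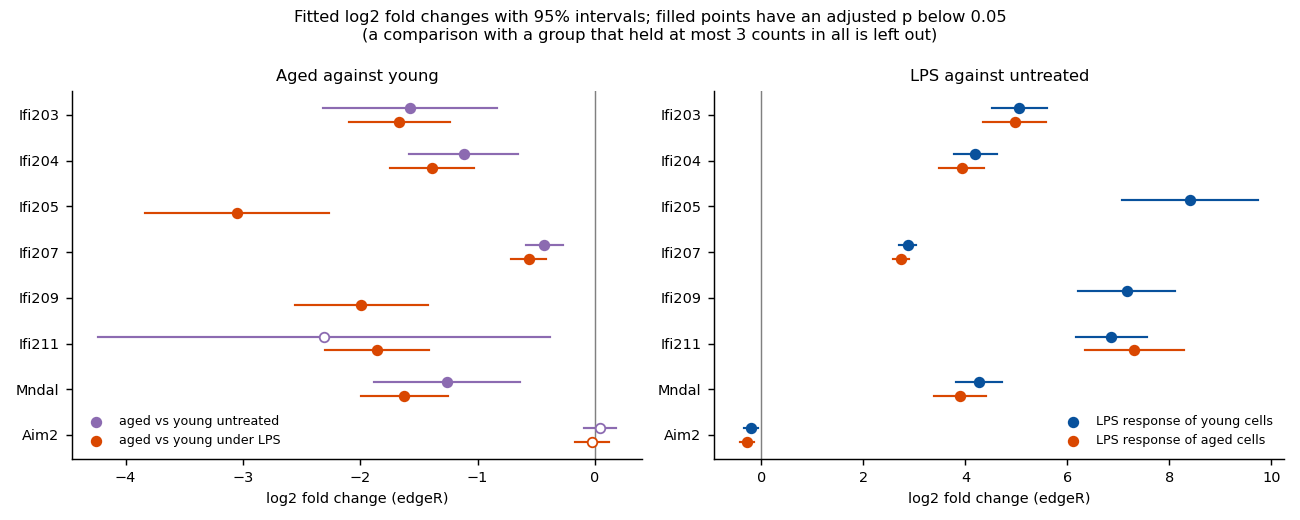
edgeR log2 fold changes of each member and of Aim2 with 95% intervals, for aged against young cultures on the left and LPS against untreated cultures on the right; filled points have an adjusted p below 0.05, and comparisons with a group of at most 3 counts in all are left out. Ifi207 lies nearest to 0 among the members in each comparison, and Aim2 lies near 0 in all of them.

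Across the 4 members that pass the filter on untreated cultures alone, the median log2 fold change was -1.51 for aged against young cultures under LPS, where the median of all genes tested was 0.0085. For the rise with LPS their medians were 4.23 in young and 3.91 in aged cultures, where the medians over all genes were -0.011 and 0.00051. In young cultures members with a lower level per length without LPS had the larger relative rise, a comparison in which both quantities share the untreated cultures. The rise ran from Ifi207 (7.30-fold) through Ifi204 (18.4-fold), Mndal (19.4-fold), Ifi203 (33.5-fold), Ifi211 (118-fold) and Ifi209 (148-fold) to Ifi205. This order is a description, and Ifi204 and Mndal differed by less than their standard errors. In aged cultures Ifi204 rose 15.2-fold and Mndal, at a lower level per length, 14.9-fold.

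The share of the young level that aged cultures reached under LPS also differed between members, and it was compared within batches because each batch held 1 culture of every group. Ifi207 in aged cultures stood at 67.7% ± 9.80 (SD, n = 5) of its batch partner, from 54.8% to 82.3%. For Ifi204 it was 39.3% ± 17.2, for Mndal 33.8% ± 15.6, for Ifi203 32.8% ± 16.5, for Ifi211 29.2% ± 16.8 and for Ifi209 28.1% ± 19.4. Ifi205 was lowest at 14.6% ± 11.7, from 4.62% to 32.7%. In each of the 5 batches Ifi207 was the highest and Ifi205 the lowest of the 7, while the ranges of the 5 members between them overlapped across batches. Among these, Ifi204, Mndal and Ifi203 were each above both Ifi211 and Ifi209, and Ifi204 was above Mndal, in 5 of 5 batches. The remaining pairs changed order between batches, and none of this was tested. Batch 3 gave the highest share for every member.

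**Figure D4:**
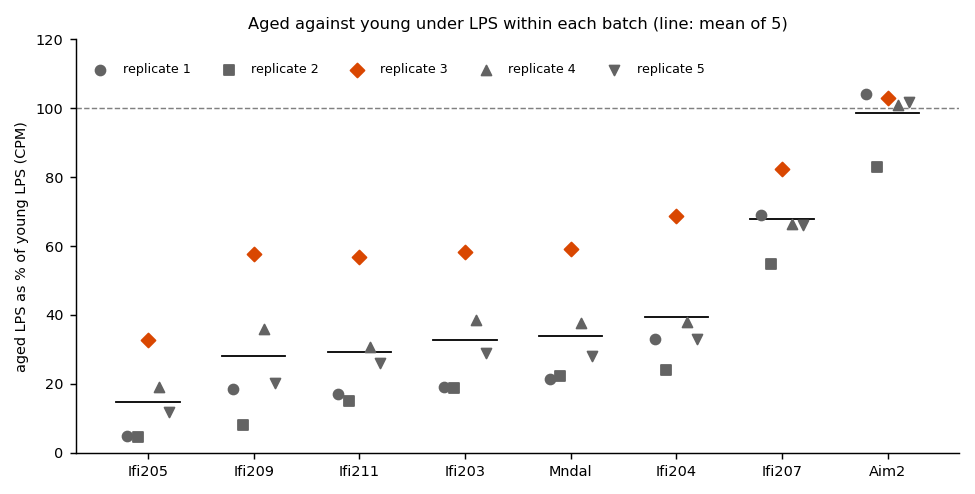
CPM of aged LPS cultures as a percentage of the young LPS culture of the same batch, for the 7 members and Aim2, with 1 symbol for each replicate and the mean as a line. Ifi205 averages 14.6% and Ifi207 67.7%, and replicate 3, the diamond, is the highest for each member.

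Aged LPS replicate 3 was also highest among the aged LPS cultures in genes of interferon signalling. Irf7, a transcription factor that amplifies interferon production, was at 158 CPM there and at 67.0 to 87.5 CPM in the other 4. Stat2, a transcription factor of interferon signalling, was at 93.7 CPM against 32.2 to 54.5 CPM. Usp18, a feedback inhibitor of the interferon receptor, was at 109 CPM against 42.1 to 66.3 CPM. The aged untreated culture of the same batch was not high in them, with 0.342 CPM of Irf7 and 0.228 CPM of Usp18, the lowest of its group. Their part in the member levels was not tested. Without that culture the difference by age under LPS was larger for each member, from -0.63 for Ifi207 to -3.68 for Ifi205 on the log2 scale, and 7 of 7 members were called by edgeR as before. For Ifi205 the change from -3.05 to -3.68 is over 1.5 times as a fold.

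Whether the response to LPS itself differed by age was tested as the interaction, the aged log2 response minus the young one. By edgeR 0 of 7 members were called, beside 6.39% of all genes in either direction, and 0 had an unadjusted p below 0.05 (p from 0.215 to 0.838, adjusted p from 0.548 to 0.954). DESeq2 also called 0. The interval was narrowest for Ifi207, at -0.13 (95% interval -0.35 to 0.083), and it was -0.27 (-0.86 to 0.32) for Ifi204, -0.37 (-1.11 to 0.38) for Mndal and -0.09 (-1.01 to 0.83) for Ifi203. For Ifi211 the interval ran from -1.45 to 2.36, and for Ifi205 and Ifi209 the near absence of reads in aged untreated cultures left it undefined for practical use. These widths do not show that both ages respond alike. With batch 3 left out of all groups, Mndal alone passed the test (-0.93, edgeR adjusted p = 0.0372).

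Compared per length, as RPKM over the annotated exons, the summed level of the 7 members, Aim2 not included, was 23.6 ± 1.86 (SD, n = 5) in young untreated, 15.3 ± 1.08 in aged untreated, 314 ± 45.9 in young LPS and 144 ± 35.7 in aged LPS cultures. Ifi207 made up most of this sum without LPS, at 70.7% ± 2.92 in young and 80.9% ± 1.77 in aged cultures. Its share fell to 39.3% ± 3.89 in young LPS and 58.1% ± 5.88 in aged LPS cultures as the other members rose more. Ifi204 held 18.4% ± 2.51 of the sum in young untreated and 25.5% ± 0.763 in young LPS cultures, and 13.2% ± 2.62 and 20.8% ± 2.17 in the aged counterparts. Ifi211 went from 1.39% ± 0.638 to 12.2% ± 1.06 in young cultures and from 0.421% ± 0.395 to 7.09% ± 1.57 in aged cultures. In young untreated cultures the order of RPKM was Ifi207 (16.7), Ifi204 (4.36), Mndal (1.21), Ifi203 (0.978), Ifi211 (0.329), Ifi209 (0.0522) and Ifi205 (0.0247), and Mndal and Ifi203 overlapped. In young LPS cultures it was Ifi207 (122), Ifi204 (80.2), Ifi211 (38.7), Ifi203 (32.8), Mndal (23.5), Ifi205 (9.18) and Ifi209 (7.72). Neighbours from Ifi211 to Mndal overlapped in range, as did Ifi205 and Ifi209. The place of Ifi211 in this order rests on a gene model of which most stretches are shared with other members.

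**Figure D5:**
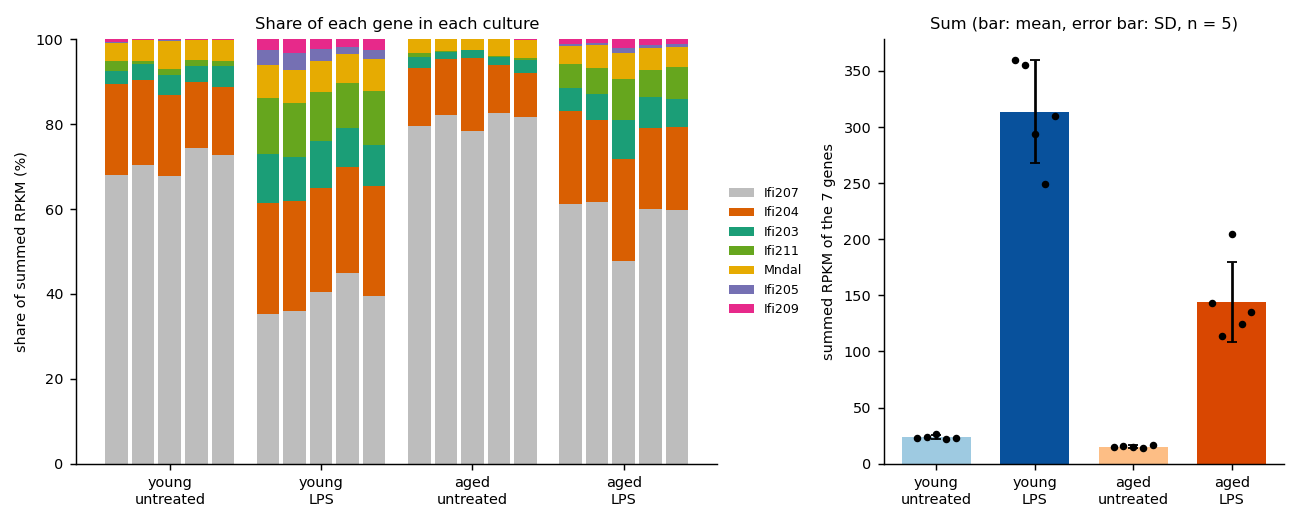
Left, the share of each member in the summed RPKM of the 7 genes, 1 stacked bar per culture; right, the sum itself with the group mean as a bar, the SD as the error bar and each culture as a point. Ifi207 takes 70.7% and 80.9% of the sum in young and aged untreated cultures and 39.3% and 58.1% with LPS.

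Of 9 other PYHIN genes looked for, 7 were found by symbol in the count table and 3 of them had enough counts to be tested. Aim2, the inflammasome sensor of the same locus, was at 47.3 ± 1.42 CPM (SD, n = 5) in young untreated and 48.8 ± 4.51 CPM in aged untreated cultures, and its groups overlapped in every comparison. It fell slightly with LPS, by 0.21 on the log2 scale in young cultures (edgeR adjusted p = 0.00978) and by 0.28 in aged cultures (adjusted p = 0.00128). By age the log2 difference of Aim2 was 0.04 without LPS (95% interval -0.092 to 0.18) and -0.02 under LPS (-0.17 to 0.12). Its RefSeq promoter held no exact response element core. Ifi206, with an exact core, was at 3.65, 4.07, 2.55, 3.06 and 2.87 CPM in young LPS and 0.843, 0.825, 2.76, 0.542 and 0.723 CPM in aged LPS cultures. It was lower in aged LPS cultures by edgeR (log2 fold change -1.47 ± 0.33 SE, adjusted p = 0.0027), with replicate 3 overlapping the young range. The pseudogene Ifi203-ps, which holds 8.85% of the 50-base stretches of Ifi203, followed the members, with 8.38 CPM in young LPS and 2.57 CPM in aged LPS cultures (-1.68 ± 0.33, edgeR adjusted p = 4.43e-04). Like Ifi205, both Ifi206 and Ifi203-ps passed the filter on low counts only through the LPS groups, so their values under LPS are a description. Ifi202b, Ifi208, Ifi213 and Ifi214 were not tested: they held 6, 1, 31 and 12 reads in all 20 cultures, most of them in young LPS cultures, while the single Ifi208 read was in an aged LPS culture. An exact core in the promoters of Ifi208, Ifi213 and Ifi214 thus went with few or no reads.

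Genes of the STING pathway, which links DNA sensing to interferon, were followed as a list. Of 9 tested, 6 rose and 1 fell with LPS at each age, where 31.2% of all genes rose in young and 27.5% in aged cultures. Under LPS 5 were lower and 0 higher in aged cultures, beside 15.0% of all genes lower, with a median log2 fold change of -0.29 beside 0.0085 for all genes. Tmem173, which encodes STING itself, was the gene that fell, from 53.7 to 39.7 CPM in young cultures (log2 fold change -0.44 ± 0.08 SE, edgeR adjusted p = 6.79e-05) and from 46.4 to 36.2 CPM in aged cultures (-0.36 ± 0.08, adjusted p = 8.25e-04). Irf7 rose from 2.47 to 206 CPM in young and from 0.669 to 92.9 CPM in aged cultures. Zbp1, a sensor of nucleic acids in the Z form, was at 6.98 CPM in young LPS and 2.92 CPM in aged LPS cultures (-1.24 ± 0.22, edgeR adjusted p = 3.28e-04). Trex1, the exonuclease that clears cytosolic DNA, was at 107 and 46.1 CPM (-1.21 ± 0.12, adjusted p = 4.36e-07). Zbp1 had at most 2 reads in any untreated culture and passed the filter on low counts only through the LPS groups. Its values and its part in the counts of this list are therefore a description. Unlike the members, Trex1 and the kinase gene Tbk1 had a called interaction, of -0.81 ± 0.20 (edgeR adjusted p = 0.017) and -0.28 ± 0.07 (adjusted p = 0.0136), and the difference between them and the members was not tested.

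An inflammasome list held Aim2, Pycard, Casp1, Casp4, Gsdmd, Nlrp3, Il1b and Il18. Nlrp3 and Casp4 act in other inflammasomes, so its counts are not results about AIM2 alone. Of the 7 genes tested, 6 rose and 1 fell with LPS in young cultures. In aged cultures 5 rose and 1 fell, and the falling gene was Aim2 at each age. The shares of all genes that rose were 31.2% and 27.5%. Under LPS 6 were lower and 0 higher in aged cultures, beside 15.0% of all genes lower, with a median log2 fold change of -0.74. Il1b, the cytokine that inflammasomes process, was at 351 CPM in young LPS and 73.8 CPM in aged LPS cultures (log2 fold change -2.25 ± 0.47 SE, edgeR adjusted p = 9.77e-04). Il18, processed likewise, was at 7.37 and 2.64 CPM (-1.48 ± 0.20, adjusted p = 9.61e-06). For Il1b the groups overlapped, at 98.5 to 633 CPM in young LPS and 15.9 to 191 CPM in aged LPS cultures. Il1b passed the filter on low counts only through the LPS groups, so its values are a description. In the interaction 3 of the 7 were called, all lower, beside 6.39% of all genes in either direction. The largest were Il18 (-1.20 ± 0.34, edgeR adjusted p = 0.0343) and Gsdmd (-0.51 ± 0.11, adjusted p = 0.00675). Casp4, which encodes the caspase that senses cytosolic LPS, was already lower in aged cultures without LPS, at 2.96 against 5.20 CPM (-0.79 ± 0.17, edgeR adjusted p = 0.00363).

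All 10 tested genes of type I interferon signalling rose with LPS in young cultures, beside 31.2% of all genes, and 9 rose in aged cultures, beside 27.5%. Under LPS 10 of 10 were lower in aged cultures, beside 15.0% of all genes, with a median log2 fold change of -0.73. Socs1, 1 of the 10, had at most 8 reads in any untreated culture. It passed the filter on low counts only through the LPS groups, so its part in these counts is a description. Stat2 was at 134 CPM in young LPS and 52.7 CPM in aged LPS cultures (-1.34 ± 0.19 SE, edgeR adjusted p = 1.68e-05). Irf1, a transcription factor induced by interferons, was at 88.3 and 40.9 CPM (-1.11 ± 0.16, adjusted p = 2.00e-05). In the interaction 2 of the 10 were called, both lower, beside 6.39% of all genes in either direction. These were Stat2 (-1.23 ± 0.30, edgeR adjusted p = 0.0155) and Irf1 (-0.85 ± 0.24, adjusted p = 0.0349). The difference between them and the members was not tested. Without LPS 2 of the 10 were lower in aged cultures, beside 7.81% of all genes, Tyk2, a receptor-bound kinase (-0.34 ± 0.09, edgeR adjusted p = 0.0195), and Ifnar1, a chain of the interferon receptor (-0.28 ± 0.06, adjusted p = 0.00243). Ifnb1, the ligand, was looked at after its values were seen: it had 0 reads in all 10 untreated cultures and at most 0.581 CPM with LPS, too few to be tested.

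Among non-members that averaged 1 log2 CPM or more, the 5 whose 4 group means were most like the members' median profile were Ifit2, Dhx58, H2-T24, Rnf213 and Oas2, with root mean square distances of 0.358, 0.363, 0.416, 0.418 and 0.429 log2 units over the 4 groups. Of the 25 protein-coding genes that are no PYHIN gene and lie within 500000 bases of the outermost members, 23 had no read in any culture. The other two were the olfactory receptor genes Olfr433, with 111 reads, and Olfr432, with 9, named after their reads were seen. Olfr433 had 2 reads in young untreated, 76 in young LPS, 0 in aged untreated and 33 in aged LPS cultures, and was lower in aged LPS than in young LPS cultures (log2 fold change -1.29 ± 0.28 SE, edgeR adjusted p = 0.00163). Young LPS cultures held 1.03 to 1.78 CPM and aged LPS cultures 0.330 to 0.562 CPM. The gene passed the filter on low counts only through LPS cultures, which favoured a lower aged value in advance, so this is a description.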

How the data were processed

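The authors made stranded mRNA libraries, sequenced them as read pairs, aligned them to GRCm38 with STAR 2.6.1d and deposited whole-number counts per Ensembl gene from featureCounts 1.5.1; settings for strand and multiply aligned reads are not given in the sources used here. All 20 libraries entered 1 fit: edgeR 4.0.16 (R 4.3.3, limma 3.58.1), quasi-likelihood F-test, TMM, filterByExpr, group as the only factor, Benjamini-Hochberg adjustment over 12799 genes, threshold 0.05. The standard error was the log2 fold change divided by the root of F. CPM used TMM-scaled library sizes, and RPKM the annotated exon length. DESeq2 1.42.0 was an alternative. The members, lists and tests were chosen with earlier results of these data known. Every member is named; of each list, at most the 2 called genes with the largest rise and fall per comparison. Intervals of read ratios and floors cover counting error only; edgeR intervals and p-values cover the spread between cultures. Replicate numbers are batch numbers in the labels, so same-numbered cultures are paired by design. Their deviations from group means correlated at 0.146 on average (30 pairs, -0.214 to 0.394). The mean was 0.268 for pairs of the same age and 0.0769 for pairs of the same treatment. Pairs of young LPS and aged LPS cultures ran from -0.214 to 0.275, so the pairing across ages was weak. The fits were tested on simulated data. Symbols matched 55141 identifiers. Promoters came from RefSeq (GRCm38.p6).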

Additional observations from a re-analysis of the deposited data

Results flagged for a closer look

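Of 27 sets of 5 cultures, 1 per member and group with reads, 8 held a culture far from the other 4 by Dixon's criterion at 0.71, where chance gives about 1 in 20. In aged LPS cultures it was replicate 3 each time, the highest in its group, for Ifi203 (127 CPM), Ifi205 (10.8 CPM), Ifi209 (13.9 CPM), Ifi211 (35.0 CPM) and Mndal (46.2 CPM). The members are not independent of each other, and all of these values come from 1 culture. Among untreated cultures the flags were Mndal in young replicate 3 (6.34 CPM), Ifi209 in young replicate 1 (0.483 CPM, 7 reads) and Ifi209 in aged replicate 5 (0.133 CPM, 2 reads), where the other 4 had 0 reads and any read would have been singled out.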

How the results depend on the processing

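The counts of members called did not change by over 1.5 times under DESeq2, the replicate block, DESeq2 size factors, library sizes alone, no filter, only the groups compared, an adjusted p below 0.01 or a log2 fold change of at least 0.5. With the replicate block edgeR called 4 members in untreated cultures, 7 in each of the 3 comparisons with LPS and 0 in the interaction, and it changed no member's call; Ifi207 was at -0.43 (adjusted p = 6.27e-04) by age without LPS. DESeq2 called 6 without LPS, of which Ifi205 and Ifi211 pass the filter on low counts only through the LPS groups. Requiring at least 10 counts in every library removed Ifi205, Ifi209 and Ifi211, and 4 of 4 remaining members were called for LPS in young cultures, 4 for LPS in aged cultures and 4 for age under LPS. Leaving out a batch or a culture left 4 to 4 members called by age without LPS and 7 to 7 in the others, and 0 to 1 in the interaction, where Mndal was called without batch 3. Only interaction estimates changed sign, none of them called: over these omissions they ran from -0.63 to 0.24 for Ifi203, -0.35 to 1.15 for Ifi205, -0.25 to 2.74 for Ifi209 (-0.13 without young untreated replicate 1) and -0.36 to 0.90 for Ifi211; the cause was not tested. The omission of aged LPS replicate 3 alone was chosen after seeing the data. Library sizes alone shifted the median of all genes by -0.23 (LPS, young) and -0.16 (LPS, aged), which is far below the members' rise. Reads without LPS limit Ifi205, Ifi209 and Ifi211.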
